A study of Mus musculus with 4 samples.

Results

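The genes described here are 8 that encode transcription factors of the endocrine pancreas: Neurog3, Neurod1, Insm1, Pax4, Pax6, Isl1, Fev and Rfx6. They were chosen by name and not by their counts, and all 8 were found among the 27998 gene identifiers of both count tables. The study compared epithelium of the mouse embryonic pancreas at embryonic day 15.5 with and without Ogt, the gene of the enzyme that attaches O-GlcNAc sugars to proteins inside the cell. Control embryos carried OGTflox/flox without Cre (genotype label WT) and were sorted for E-cadherin, a surface protein of epithelial cells. Knockout embryos were PdxCre;OGTflox/flox;CAG GFP and were sorted for their own green fluorescence. Both genotypes therefore carried the floxed allele, and Cre came from the Pdx driver, which is active in early pancreatic epithelium. The number of embryos is not given in the sources used here. Each genotype was 1 single-cell library sequenced in 2 runs, so every difference between libraries stands without a replicate check, is given without a p-value, and cannot be told apart from the different sort.

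Endocrine cells of the pancreas arise from ductal-like trunk epithelium. A cell that commits turns on Neurog3, a basic helix-loop-helix factor, for a short time. Neurog3 is known to switch on Neurod1, Insm1, Pax4 and Rfx6, and the cell then leaves the trunk, makes secretory granules and settles on 1 hormone. Pax4 is known for the beta and delta cell choice, and Pax6 and Isl1 for hormone gene expression in maturing cells. Fev, an ETS factor better known from serotonin neurons, marks cells between the Neurog3 stage and hormone-positive cells.

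The control table held 941 barcodes with a median of 10756 UMIs (counted transcripts), and the knockout-labelled table held 617 with a median of 15367. No barcode was shared. After filtering, 921 and 553 cells remained. Cells were clustered without the 8 genes, and clusters were named from marker lists, so names such as endocrine-like rest on other genes. Among control cells 714 were leukocyte-like and 105 epithelial-like, and among knockout-labelled cells 48 were leukocyte-like and 266 epithelial-like, although both sorts were meant to collect epithelium. Endocrine-like cells numbered 20 in the control and 42 in the knockout-labelled library, with median depths of 7576 and 16608 UMIs. All 17 endocrine markers had UMIs in both. Over all cells Ogt stood at 61.8 CPM (the UMIs of a gene scaled to the summed total of the cells; 95% interval 57.4 to 66.5) in the control and 56.5 CPM (52.0 to 61.2) in the knockout-labelled library. In endocrine-like cells it stood at 123 CPM (21 UMIs, 76.0 to 188) and 29.5 CPM (21 UMIs, 18.3 to 45.1). Other epithelial classes differed less. Over all epithelial-like cells Ogt stood at 57.1 CPM (47.0 to 68.7) and 37.3 CPM (32.7 to 42.4). It stood at 37.1 and 38.2 CPM in acinar-like cells. In the trunk/ductal-like cluster led by Spp1 it stood at 86.7 and 62.9 CPM. Intervals overlapped between libraries in both of these classes. The sources used here do not say which part of Ogt is floxed, so these counts check the deletion only in part. All intervals printed here cover counting error alone and not the spread between cells or embryos.

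The endocrine-like cells held most transcripts of the group. They were 2.17% of control cells and carried 62.0% of the 1220 UMIs of the 8 genes (59.3 to 64.8). They were 7.59% of knockout-labelled cells and carried 1963 of 2617 UMIs there (73.3% to 76.7%). Every endocrine-like cell held at least 1 of the 8 genes, with a median of 4 in the control and 5 in the knockout-labelled library. All 8 genes were more than 2-fold higher there than in the other epithelial-like cells of the same library, against 21.3% of the 7998 genes measured in the control and 16.7% of 11285 in the knockout-labelled library. Beyond these cells a few transcripts were spread thinly. In leukocyte-like cells, which are not known to use these genes, each of the 8 stood between 0 and 5.55 CPM in the control and between 0 and 10.3 CPM in the knockout-labelled library, which gives the level of free RNA or mixed barcodes.

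**Figure D1:**
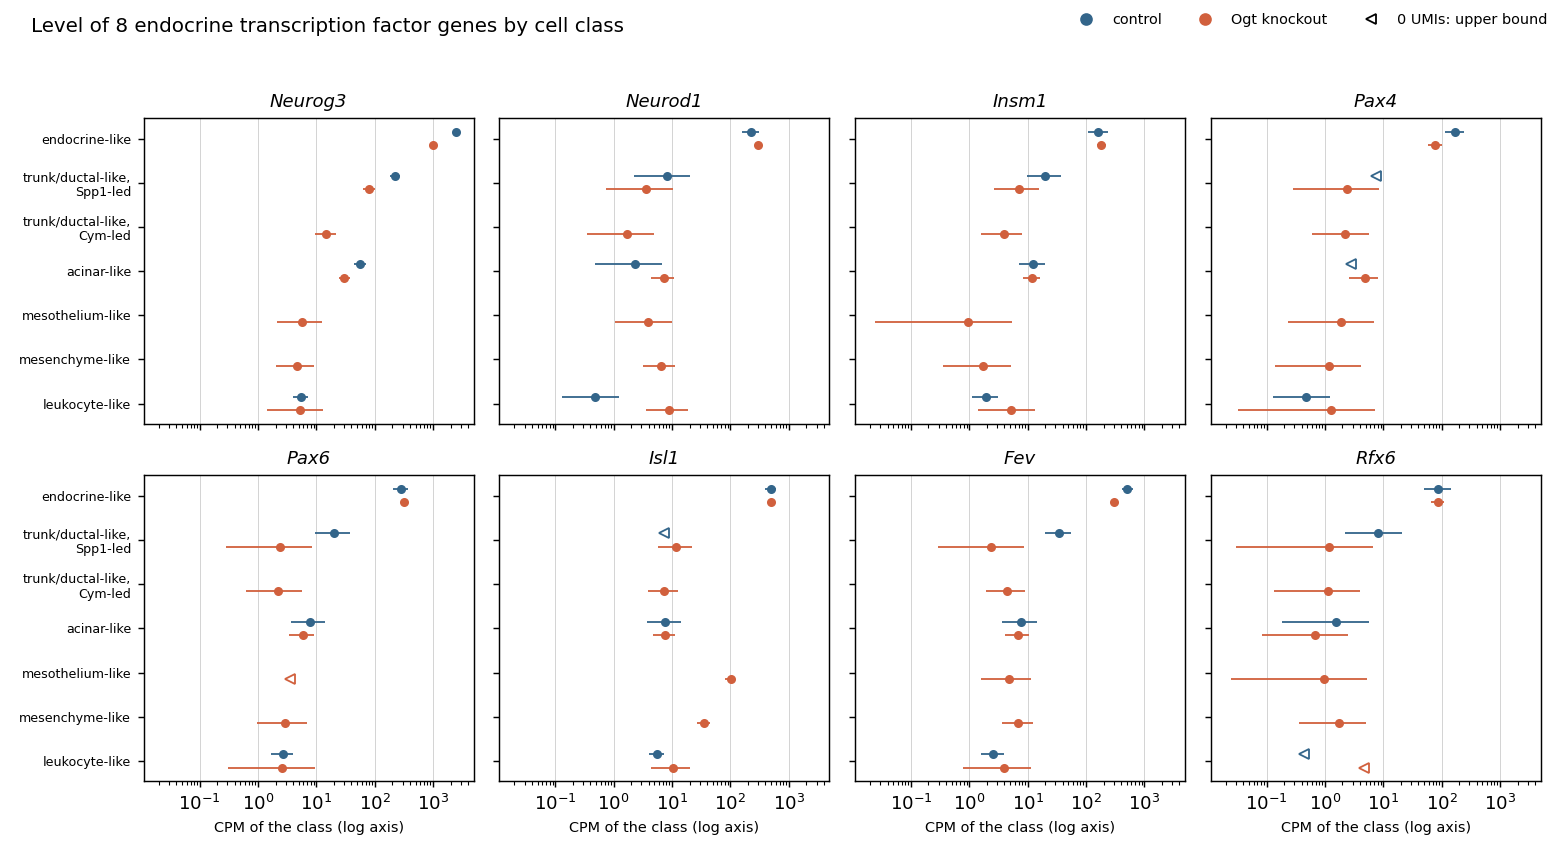
Level of each gene by cell class on a log axis of CPM, with exact 95% Poisson intervals; blue is control, orange knockout-labelled, open triangles mark the upper bound where a class held 0 UMIs, and classes under 20 cells are left out. The endocrine-like class stands highest in every panel, Neurog3 has a second step in the Spp1-led trunk/ductal-like cells, and Isl1 has one in mesothelium-like cells.

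Neurog3, the factor that starts endocrine commitment, lies on chr10:62133090-62134763 (GRCm38, plus strand). Its stretch of 250 bases before the RefSeq start, and the same stretch of Isl1, a factor of late cells, are shown as the control regions of an early and a late member. Capitals mark the letters CANNTG, the E-box pattern that basic helix-loop-helix factors such as Neurog3 and Neurod1 bind, read on both strands.
Neurog3, chr10:62132840-62133089, plus strand: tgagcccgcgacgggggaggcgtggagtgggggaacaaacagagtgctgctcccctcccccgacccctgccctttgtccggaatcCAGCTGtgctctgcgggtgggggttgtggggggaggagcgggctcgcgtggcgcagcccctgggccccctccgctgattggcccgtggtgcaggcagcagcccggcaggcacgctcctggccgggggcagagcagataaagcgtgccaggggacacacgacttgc
Isl1, chr13:116309689-116309938, minus strand: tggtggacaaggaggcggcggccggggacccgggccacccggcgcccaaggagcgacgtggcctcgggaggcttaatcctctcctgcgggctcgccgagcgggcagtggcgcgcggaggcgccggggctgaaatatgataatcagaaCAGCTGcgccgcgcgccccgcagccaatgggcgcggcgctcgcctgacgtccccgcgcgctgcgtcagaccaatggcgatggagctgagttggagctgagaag
Both windows (RefSeq, GRCm38.p6) held 1 match with the letters CAGCTG, 165 bases before the start in Neurog3 and 103 in Isl1. Of 32851 promoter windows of that length, 66.2% held CANNTG, so a match says little about binding.

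Neurog3 transcripts sat in few cells at high number. In endocrine-like cells its count ran from 0 to 136 UMIs with a median of 1.5 in the control, and from 0 to 93 with a median of 0.5 in the knockout-labelled library. The class levels were 2489 CPM (2259 to 2737) and 997 CPM (925 to 1073). In each library 14 cells held at least 10 UMIs, and these carried 87.8% of control and 87.4% of knockout-labelled Neurog3 UMIs. Of the 14 control cells 7 were endocrine-like, 5 belonged to the Spp1-led trunk/ductal-like cluster with 11, 11, 11, 22 and 50 UMIs, and 2 were acinar-like. All but 1 of the control acinar-like cells came from another cluster than those of the knockout-labelled library. Of the 14 knockout-labelled cells 10 were endocrine-like, 3 were trunk/ductal-like with 14, 17 and 19 UMIs, and 1 was acinar-like. Neurog3 was thus also present in cells that still clustered with the trunk, at 224 CPM (184 to 270) in 35 control cells and 80.6 CPM (62.6 to 102) in 42 knockout-labelled cells. In the Cym-led trunk/ductal-like cluster, with 89 cells, all of the knockout-labelled library, it stood at 14.6 CPM (9.53 to 21.4). The gene overlaps Fam241b on the other strand, and whether counting used strand is not given in the sources used here.

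The acinar-like barcodes with much Neurog3 also held UMIs of acinar and leukocyte markers. The 2 control barcodes held 21 and 43 Neurog3 UMIs together with 98 and 89 UMIs of the acinar enzyme Cpa1. Acinar markers in all had 435 and 536 UMIs there, and leukocyte markers 188 and 214. The knockout-labelled barcode held 67 Neurog3, 21 Insm1, 9 Pax4 and 8 Neurod1 UMIs at a depth of 76396 UMIs. Its acinar markers had 2353 UMIs and its leukocyte markers 32. Other acinar-like cells were not set beside them. Whether they were mixed barcodes was not tested.

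The cells with at least 10 Neurog3 UMIs showed which factors came with it. Insm1, a zinc-finger factor of endocrine progenitors, was present in 12 of 14 control and 13 of 14 knockout-labelled cells. Neurod1, a helix-loop-helix factor that follows Neurog3, was present in 6 and 9, Pax4 in 4 and 9, and Rfx6, a winged-helix factor needed for islet formation, in 4 and 10. The late factors were held by few of these cells: Pax6 by 3 and 3, Isl1 by 4 and 2, Fev by 3 and 2. In the control, 2 of the cells with each late factor were the acinar-like barcodes described above. Depth differed between libraries, so the counts are best read within each.

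To place the cells along commitment, each was given the percent of its UMIs that came from 23 endocrine product genes, namely hormones and granule or hormone-processing genes. None of the 8 factors was among them. In leukocyte-like cells the median of this position was 0.0232% in the control and 0.0823% in the knockout-labelled library, the level that free RNA can give, so values near or under 0.1% cannot be compared between libraries. Endocrine-like cells ran from 0.0138% to 33.3% in the control and from 0.0701% to 14.6% in the knockout-labelled library. A limit of 0.3%, chosen after the values were seen, split them into 7 early and 13 late control cells and into 9 early and 33 late knockout-labelled cells.

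Neurog3 came first in both libraries. Over epithelial-like cells, the median position of cells with Neurog3 was 0.0336% in the control and 0.0877% in the knockout-labelled library, and the other 7 genes had higher medians in both. The knockout-labelled medians of Pax4 (0.101%), Isl1 (0.101%), Fev (0.104%) and Insm1 (0.120%) lay inside the range that free RNA gives, so there the order rests on the endocrine-like cells, where the median was 0.938% for Neurog3 and 1.27% to 2.64% for the others. The control medians in endocrine-like cells were 0.157% for Neurog3 and 0.810% to 2.98% for the others. Among epithelial-like cells 6 of 7 genes came after Neurog3 in the control when cells were thinned to 5000 UMIs, where Insm1 had the lower median (0.0200% against 0.0400%), and 6 of 7 in the knockout-labelled library when hormone genes were left out of the position, where Fev did (0.0220% against 0.0228%). All 7 early control cells held Neurog3, with 7 to 136 UMIs, and all 9 early knockout-labelled cells held it, with 30 to 93. In late cells it was present in 5 of 13, with at most 15 UMIs, and in 12 of 33, with at most 60. Its level was 5651 CPM (5114 to 6229) in early and 211 CPM (131 to 323) in late control cells, and 3908 CPM (3606 to 4228) and 165 CPM (133 to 202) in the knockout-labelled library. This fall holds for cells of the endocrine-like class alone. Over all epithelial-like control cells, Neurog3 stood at 295 CPM (23 of 89 cells) below 0.3% and 460.5 CPM (8 of 16) from there on. The knockout-labelled levels were 140 CPM (53 of 233 cells) and 165 CPM (12 of 33). Early and late cells overlapped in single counts, since 1 late control cell held 15 UMIs and 1 late knockout-labelled cell held 60.

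**Figure D2:**
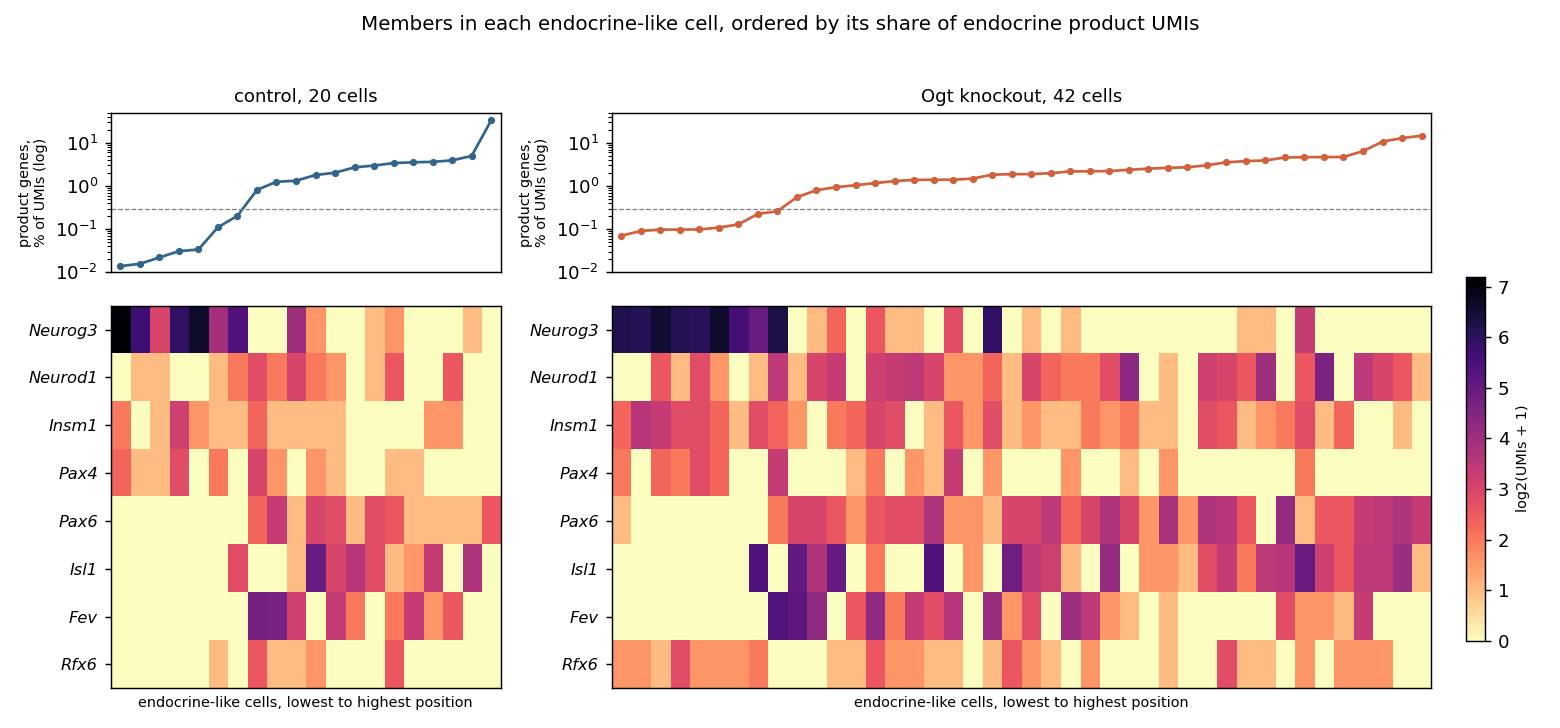
Each column is 1 endocrine-like cell, ordered by its percent of endocrine product UMIs (upper panels, log axis, dashed line at 0.3%); colour in the lower panels is log2(UMIs + 1) of each gene. Dark Neurog3 cells fill the left of both panels, and Pax6, Isl1 and Fev begin near the dashed line, in 20 control and 42 knockout-labelled cells.

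Insm1 and Pax4 overlapped Neurog3 and went on past it. Insm1 (chr2:146221921-146225020, plus strand) was held by 6 of 7 early and 7 of 13 late control cells, and by 9 of 9 early and 27 of 33 late knockout-labelled cells. Its level was 223 CPM (128 to 362) early and 121 CPM (62.4 to 211) late in the control, with intervals that overlapped. Among knockout-labelled cells it was 323 CPM (240 to 424) early and 145 CPM (115 to 180) late, with intervals that did not overlap.

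Pax4 (chr6:28442334-28449353, minus strand) was held by 5 of 7 early and 6 of 13 late control cells, at 209 CPM (117 to 345) and 141 CPM (77.0 to 236). Among knockout-labelled cells 6 of 9 early and 10 of 33 late ones held it, at 183 CPM (123 to 263) and 47.0 CPM (30.7 to 68.9). Of the 12 knockout-labelled cells above 3%, 1 held Pax4, with 3 UMIs. In the 85 other epithelial-like control cells it had 0 UMIs, which makes the endocrine-like level at least 101-fold higher with 3 UMIs put in place of 0.

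Neurod1 was found in both early and late cells. Neurod1 (chr2:79452521-79456751, minus strand, overlapping Cerkl on its own strand) stood at 83.7 CPM (30.7 to 182) in early and 322 CPM (220 to 454) in late control cells, and at 158 CPM (102 to 233) and 342 CPM (295 to 394) in the knockout-labelled library. Late levels were above early levels in both, with counting intervals that did not overlap. The early control level rests on 6 UMIs. The share of cells with Neurod1 was close in the control, at 4 of 7 early and 8 of 13 late cells. Among knockout-labelled cells 6 of 9 early and 28 of 33 late ones held Neurod1. Rfx6 (chr10:51677756-51730432, plus strand) was sparse, with 15 UMIs in 20 control and 61 UMIs in 42 knockout-labelled cells. Among early cells it was present in 1 of 7 control and 8 of 9 knockout-labelled cells, whose median depths were 9781 and 17738 UMIs. With every cell thinned to 5000 UMIs these counts became 1 of 6 and 4 of 9, and the exact 95% intervals of the unthinned shares, 0.361% to 57.9% and 51.8% to 99.7%, overlapped.

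Pax6 marked the step past 0.3%. Pax6 (chr2:105668900-105697364, plus strand), a paired-box factor that drives hormone genes, had 0 UMIs in 7 early control cells, which allows a level of up to 51.5 CPM, and was present in 13 of 13 late ones. Of knockout-labelled cells 2 of 9 early and 32 of 33 late ones held it. Its level went from 0 to 483 CPM (356 to 640) in the control and from 25.3 CPM (6.89 to 64.8) to 401 CPM (350 to 458) in the knockout-labelled library. At 5000 UMIs a cell it was present in 0 of 6 early and 9 of 9 late control cells, and in 1 of 9 and 27 of 33 knockout-labelled cells. The single late knockout-labelled cell without it held 15 Neurod1 and 10 Isl1 UMIs and 573 of Ghrl, the ghrelin gene. Pax6 overlaps the antisense gene Pax6os1.

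Fev and Isl1 were also held mostly by late cells. Fev (chr1:74881509-74885419, minus strand) was present in 0 of 7 early and 9 of 13 late control cells, and in 1 of 9 and 21 of 33 knockout-labelled cells. Isl1 (chr13:116298281-116309689, minus strand), a LIM-homeodomain factor of maturing islet cells, was present in 1 of 7 early and 9 of 13 late control cells, and in 1 of 9 and 26 of 33 knockout-labelled cells. The early cells with either were the ones next to the limit: a control cell at 0.203% with 40 Neurog3 and 6 Isl1 UMIs, a knockout-labelled cell at 0.224% with 30 Neurog3 and 41 Isl1, and another at 0.260% with 79 Neurog3, 10 Neurod1, 9 Pax4 and 39 Fev UMIs.

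Along the late cells Fev was highest first and lower afterwards. In the knockout-labelled library its level was 1329 CPM (995 to 1738) in 3 cells at 0.3 to 1%, 383 CPM (313 to 463) in 18 cells at 1 to 3% and 83.8 CPM (51.2 to 129) in 12 cells above 3%. In the control it was 2249 CPM in the 1 cell of the first of these steps, 845 CPM (614 to 1134) in 6 cells of the next and 524 CPM (315 to 818) in 6 cells above 3%, where the last intervals overlapped. Isl1 was present in 11 of 18 knockout-labelled cells at 1 to 3% and in 12 of 12 above 3%, and in 5 of 6 and 4 of 6 control cells, where its level was 1056 CPM (796 to 1375) and 662 CPM (424 to 985). Its knockout-labelled level was also highest in the 3 cells at 0.3 to 1%, at 1880.5 CPM (1479 to 2357), and was 419 CPM (346 to 503) at 1 to 3% and 498 CPM (413 to 596) above 3%.

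**Figure D3:**
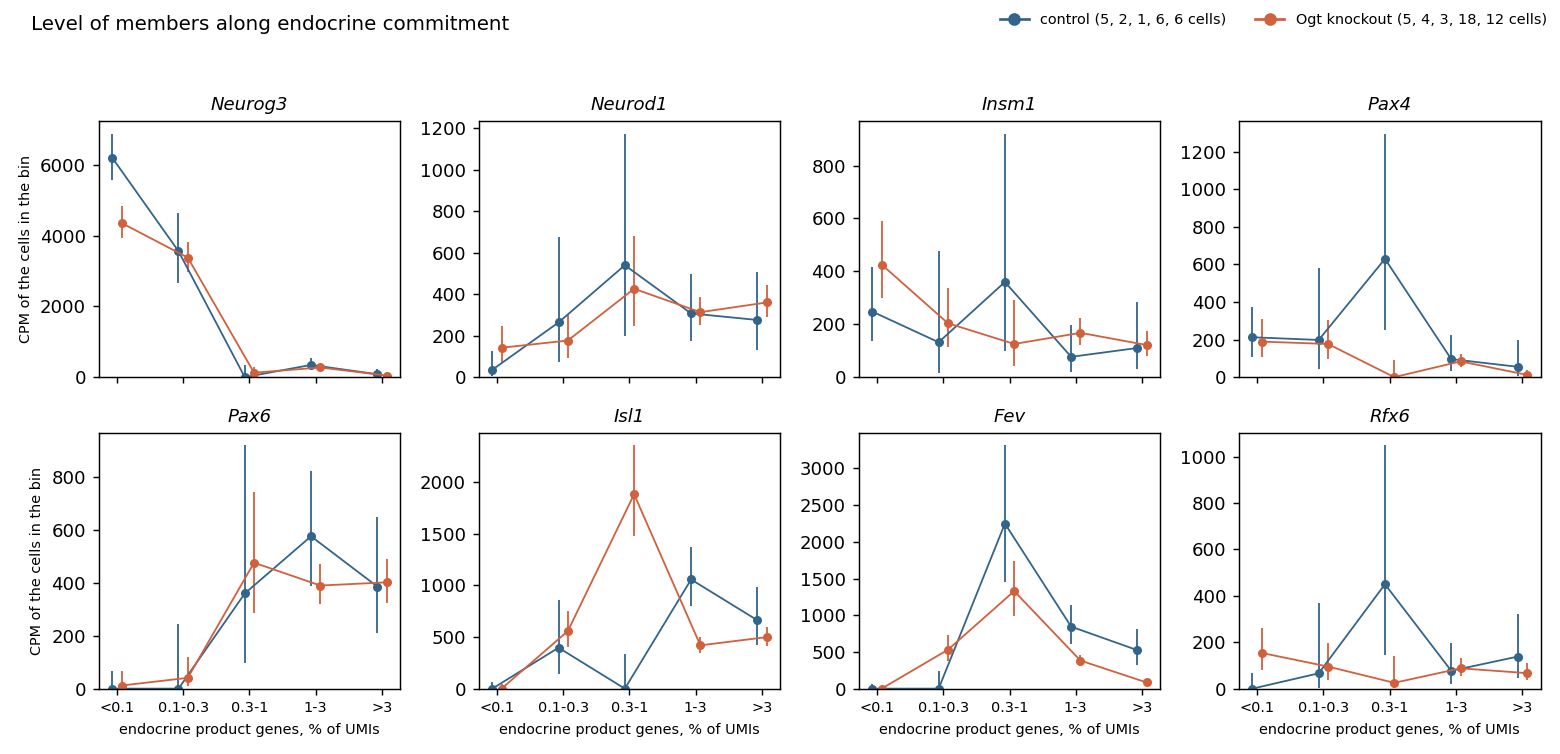
CPM of each gene over the endocrine-like cells of 5 position steps (percent of UMIs from endocrine product genes), with exact 95% Poisson intervals; cell numbers per step stand in the legend. Neurog3 falls from 6210 and 4364 CPM below 0.1% to 82.7 and 46.1 CPM above 3%, while Pax6 rises and Fev peaks between 0.3% and 1%; steps of 1 to 4 cells rest on those cells.

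Which factors shared a cell was read from the same counts of the same cells, so it is not a separate check of the order. A cell was counted as holding a gene with 1 UMI or more, and for each of 28 pairs the cells with both were divided by the cells with either (the Jaccard index). Over endocrine-like cells the index ran from 0.105 to 0.692 with a median of 0.375 in the control, and from 0.132 to 0.707 with a median of 0.483 in the knockout-labelled library. Pax6 was held by 13 of 20 control and 34 of 42 knockout-labelled cells of this class. Every Fev cell of the class also held Pax6, 9 of 9 in the control and 22 of 22 in the knockout-labelled library. Of its Isl1 cells, 9 of 10 and 25 of 27 held Pax6. Neurod1 and Insm1 shared 9 of 16 control and 29 of 41 knockout-labelled cells with either, the highest index of the knockout-labelled library at 0.707. Over all epithelial-like cells, Pax6 was held by 12 of 14 control and 27 of 51 knockout-labelled Fev cells. For Isl1 cells the counts there were 11 of 16 and 30 of 68.

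The pair with least overlap in each library joined an early and a late member. In the control the lowest index was that of Neurog3 and Fev, with 2 cells holding both of 19 with either (0.105). In the knockout-labelled library it was that of Pax4 and Isl1, with 5 of 38 (0.132), and in the control that pair had 4 of 17 (0.235). Neurog3 and Isl1 shared 9 of 39 knockout-labelled cells with either (0.231). In the control they shared 6 of 16, an index of 0.375 that equals the control median over all pairs. Indices are higher in deeper cells, and the cells of a library share its depth and free RNA, so no p is given. Of all epithelial-like cells with Neurog3, 25.8% held Pax6 in the control and 23.1% in the knockout-labelled library. The second value was 12.5% when 2 UMIs were asked for, 6.45% at 5000 UMIs a cell, and 61.9% among endocrine-like cells alone.

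**Figure D4:**
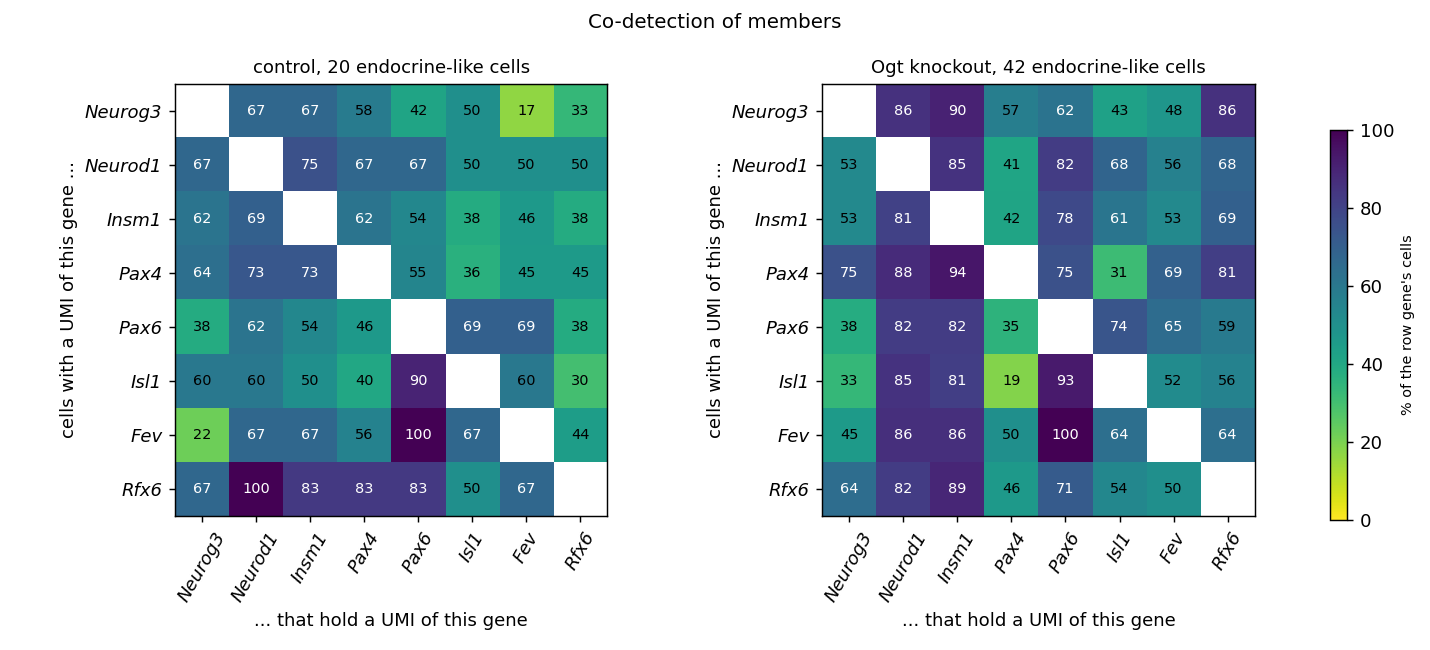
Share, in percent, of the endocrine-like cells with a UMI of the row gene that also hold a UMI of the column gene, in 20 control and 42 knockout-labelled cells. The row of Fev reaches 100 under Pax6 in both libraries. The row of Isl1 is lowest under Pax4 in the knockout-labelled library, at 18.5. In the control it stands at 40 under Pax4 and is lowest under Rfx6, at 30.

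Late cells with Fev and late cells with Isl1 differed in their products. This split was made after the values were seen, and the products are among the genes that give the position. In the control 3 late cells held Fev without Isl1, 3 held Isl1 without Fev, 6 held both and 1 neither. The knockout-labelled numbers were 7, 12, 14 and 0. Chgb, a granule protein gene, stood at 7295 CPM in control cells with Fev alone, 7799 CPM with both and 127 CPM with Isl1 alone, and at 6668, 2942 and 1380 CPM in the knockout-labelled library. The gut-type peptide hormone genes Pyy and Ghrl went the other way. Pyy stood at 391 CPM with Fev alone, 5991 CPM with both and 9803 CPM with Isl1 alone in the control. Its knockout-labelled levels were 1192, 11434 and 23236 CPM, where 1 cell held 1908 of the 4849 UMIs of the Isl1 group. The median cell with Fev alone and with Isl1 alone stood at 0 and 10634 CPM in the control, and at 730 and 2994 CPM in the knockout-labelled library. Ghrl stood at 32.6 and 11662 CPM in the control, where 1 cell held all 276 UMIs of the Isl1 group, and at 153 and 8635 CPM in the knockout-labelled library, with 0 to 5 and 0 to 592 UMIs a cell.

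Pax4 and Cryba2 differed between these late cells as well. Pax4 was absent from all 12 knockout-labelled cells with Isl1 alone and present in 5 of 7 with Fev alone. In the control it was present in 1 of 3 and 2 of 3. Cryba2, a crystallin gene found in islet cells, stood at 847 and 84.5 CPM with Fev alone and Isl1 alone in the control, and at 448 and 105 CPM in the knockout-labelled library. Single cells decide several of these levels, since groups held 3 to 14 cells.

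Cells rich in a hormone mostly held Isl1 and Pax6, but so did most late cells. Of all late cells, 13 of 13 control and 32 of 33 knockout-labelled ones held Pax6. For Isl1 these shares were 9 of 13 and 26 of 33. The Pax6 counts below are thus near the share of late cells. Of endocrine-like cells with at least 50 UMIs of Gcg, the glucagon gene, 2 of 2 control and 5 of 5 knockout-labelled cells held both factors, with 6 to 11 and 3 to 17 Isl1 UMIs. Of those with at least 50 UMIs of Ghrl, 2 of 2 and 7 of 7 held Isl1. Of those with at least 50 UMIs of Pyy, 5 of 5 and 17 of 17 held both. Of cells with at least 50 UMIs of Iapp, the amylin gene, 0 of 1 control and 6 of 7 knockout-labelled cells held Isl1, and all 8 held Pax6. Each library also had 1 cell with at least 50 Ins2 UMIs: the control cell, which is also the Iapp cell, with 1850 Ins2 UMIs and the highest position of all at 33.3%, held 5 Pax6 UMIs and none of the other 7 genes, while the knockout-labelled cell, with 828, held 16 Isl1, 12 Pax6, 5 Neurod1 and 1 Insm1 UMIs.

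Between the libraries, the level over all endocrine-like cells was at least 1.5-fold lower in the knockout-labelled library for 3 of the 8 genes and at least 1.5-fold higher for 0. Of 6000 genes with at least 20 UMIs over both, 17.2% were lower and 23.0% higher by that measure. The median log2 ratio of the 8 genes was -0.02, beside 0.04 over all genes measured. The 3 were Neurog3 (ratio 0.400, 0.355 to 0.453), Pax4 (170 against 77.3 CPM, ratio 0.456, 0.286 to 0.742) and Fev (514 against 305 CPM, ratio 0.593, 0.461 to 0.769). The other 5 had ratios from 0.978 for Rfx6 to 1.35 for Neurod1.

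These 3 differences depended on which cells were counted. Early cells were 7 of 20 in the control and 9 of 42 in the knockout-labelled library. Within early cells Neurog3 had a ratio of 0.692 (0.609 to 0.786) and Pax4 of 0.876 (0.455 to 1.76), and 0 of the 8 genes were at least 1.5-fold lower, while 4 were higher: Neurod1 (1.89), Isl1 (3.10, from 1 cell in each library), Rfx6 (9.06, from 1 UMI in the control) and Fev. Fev had 0 UMIs in early control cells and 39 in 1 early knockout-labelled cell, at least 5.89-fold higher with 3 UMIs put in place of 0. The share of all genes past 1.5-fold was not computed within early cells, so these counts of genes cannot be set against it. Within late cells the ratio was 0.779 (0.481 to 1.32) for Neurog3, 0.334 (0.168 to 0.692) for Pax4 and 0.364 (0.280 to 0.475) for Fev. Rfx6, which was higher in early cells, had a late ratio of 0.527, from 14 and 41 UMIs. Leaving out the 5 cells with the highest count of a gene in each library, which takes 5 of 20 control and 5 of 42 knockout-labelled cells, turned the ratio of Neurog3 to 1.30 (0.938 to 1.84) and that of Fev to 1.40 (0.778 to 2.73). Clustering each library alone gave 63 endocrine-like control cells in place of 20, so that class took in cells named otherwise in the joint clustering. With this wider control class the ratios became 1.26 for Neurog3, 2.04 for Pax4 and 2.05 for Fev. With mitochondrial UMIs at most 5% the control class shrank to 13 cells, and the ratio was 0.911 (0.714 to 1.17) for Neurog3, 0.325 (0.246 to 0.431) for Fev and 0.466 (0.247 to 0.921) for Rfx6.

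**Figure D5:**
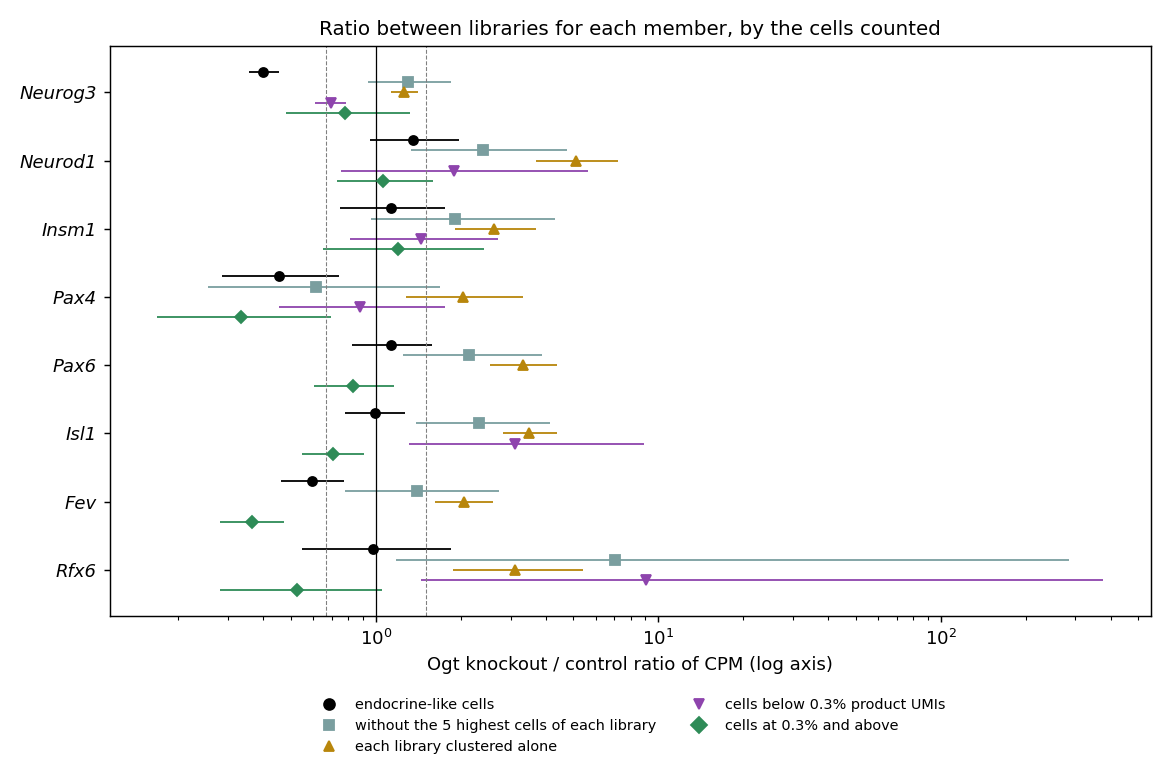
Ratio of CPM, knockout-labelled over control, for each gene on a log axis with exact 95% intervals that cover counting error; dashed lines mark 1.5-fold in either direction, and a ratio with 0 UMIs on 1 side is not drawn. Black points are all endocrine-like cells and colours are other choices of cells; Neurog3 moves from 0.400 to 1.30 and Fev from 0.593 to 1.40 without the 5 highest cells of each library.

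Transcripts of other cell types moved with the library in these cells. The summed level of 12 leukocyte markers, all detected in both, was 3617 CPM in control endocrine-like cells (2058 to 7476 in single cells) and 547 CPM in knockout-labelled ones (239 to 917), without overlap. That of 14 acinar markers was 3231 CPM (1974 to 6430) and 6790.5 CPM (4399.9 to 13469), with 11 and 13 detected and Pnlip at 0 in both. That of 10 mesenchyme markers was 204 CPM (0 to 968) and 956 CPM (422 to 3110), with 5 and 9 detected, Pdgfrb at 0 in both, and Col1a1, Col1a2, Lum and Pdgfra at 0 in the control. Their part in the ratios was not tested. Ogt moved along the axis in the knockout-labelled library: it stood at 82.2 CPM (13 UMIs, 43.8 to 141) in the 9 early cells and 14.5 CPM (8 UMIs, 6.24 to 28.5) in the 33 late cells. In the control it stood at 140 CPM (10 UMIs, 66.9 to 257) and 111 CPM (11 UMIs, 55.2 to 198). Its intervals overlapped between libraries in early cells and not in late ones.

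Other factors of the islet program were read from lists. Of 29 further islet and progenitor factors, 22 had at least 20 UMIs, and 3 were higher, 9 lower and 10 between, with a median log2 ratio of -0.37. Among those with most UMIs, Sox4, a progenitor factor, stood at 976 and 595 CPM (ratio 0.609, 0.508 to 0.733) and Tox3 at 543 and 311 CPM (0.572, 0.447 to 0.736). Nkx2-2, a partner of Pax6 and Neurod1 in islet development, stood at 304 and 235 CPM (0.773, 0.563 to 1.08), and Meis2 at 444 and 360 CPM (0.810, 0.625 to 1.06). Of 12 genes of Neurog3-stage progenitors 10 were measured, with 1 higher, 5 lower and 4 between. Gadd45a, a stress and growth-arrest gene, stood at 380 and 238 CPM and was lower, while Cck, a peptide hormone gene, stood at 123 and 434 CPM and was higher.

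Of 14 Notch pathway genes, whose signal holds trunk cells back from Neurog3, 5 were measured, with 0 higher, 2 lower and 3 between. Hes1, the Notch target that represses Neurog3, stood at 164 and 74.5 CPM (ratio 0.455, 0.283 to 0.748), while Hes6, Mfng and Rbpj had ratios of 1.04, 0.962 and 0.997. Of 8 serotonin genes, known as partners of Fev in neurons, 2 were measured. Ddc, which makes serotonin from its precursor, stood at 76.0 and 141 CPM (1.85, 1.03 to 3.60), and Gch1 at 275 and 277 CPM. The serotonin-making enzyme genes Tph1 and Tph2 had 3 and 0 UMIs in control cells and 1 and 0 in knockout-labelled cells.

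Of 8 hormone genes 5 were higher and 3 lower, and each of the 3 rested on 1 control cell. Pyy stood at 2758 and 10932 CPM (ratio 3.96, 3.61 to 4.36), Iapp at 730 and 3771 CPM (5.16, 4.31 to 6.23) and Ghrl at 1946 and 4215 CPM (2.17, 1.93 to 2.43). Ins2 stood at 10863 and 1246 CPM (0.115, 0.106 to 0.124), but 1850 of the 1859 control UMIs were of 1 cell. That cell also held 678 of 685 control Ins1 UMIs. Sst had 10 and 11 UMIs, from 1 cell in each library. Single cells also held 276 of 333 control Ghrl UMIs, 91 of 125 control Iapp UMIs and 1307 of 2682 knockout-labelled Iapp UMIs. Without the highest cell of each library the ratio was 3.86 for Pyy, 8.13 for Ghrl, 9.69 for Iapp and 1.54 (0.759 to 3.54) for Ins2. Of 15 granule and processing genes 13 were measured, with 5 higher, 0 lower and 8 between. Chgb stood at 3068 and 2398 CPM (0.782, 0.709 to 0.864).

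Isl1 was also found outside the epithelium. Of the 65 mesothelium-like cells, all of the knockout-labelled library, 49 held it, with 105 UMIs (101 CPM, 82.5 to 122), at most 7 a cell, and in 38 of them it was the sole member of the 8. The other 7 genes had 19 UMIs there in all. Of 142 mesenchyme-like cells 42 held it, with 60 UMIs (34.9 CPM, 26.6 to 44.9). Isl1 stood at 10.3 CPM (4.45 to 20.3) in the leukocyte-like cells of that library, whose interval overlapped neither. The median position of these cells, 0.0895% and 0.0966%, was near that of leukocyte-like cells. The control held 8 mesenchyme-like cells, with 0 Isl1 UMIs, and no mesothelium-like cells, so the libraries could not be compared there. In the control 3 leukocyte-like barcodes held 4 to 8 Isl1 UMIs with 22 to 285 Pyy UMIs and 129 to 149 UMIs of leukocyte markers. Whether they were mixed barcodes was not tested.

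For each factor the 3 genes found in the most similar set of cells were taken over 364 epithelial-like cells of both libraries at 5000 UMIs, again by the Jaccard index. Neurog3 was nearest to Rcor2 (0.287), Cbfa2t3 (0.275) and Vwa5b2 (0.261). Fev was nearest to Cryba2, with 21 of 40 cells with either holding both (0.525). Pax6 was nearest to 1700086L19Rik (0.483), Dbpht2 (0.472) and Map1b (0.444), and Isl1 to Fam183b (0.351), Map1b (0.347) and Pcsk2 (0.346). Neurod1 was nearest to Ptprn2 (0.423), Celf3 (0.422) and Zcchc18 (0.405). Insm1 was nearest to Syt7 (0.340), and Pax4 and Rfx6 to Vwa5b2 (0.364 and 0.359), which also stood among the 3 nearest of Neurog3, Insm1 and Fev. These genes share the libraries and depth of the cells, and the indices are a description.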

How the data were processed

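The deposited tables, 1 a genotype, hold UMI counts of genes in cells. The submitters' processing notes name Cell Ranger 2.0.0, Seurat 2.0, DESeq2 1.14.1 and mm10, without their roles; how barcodes were called as cells is not stated there. The 2 samples of each genotype are sequencing runs of the same library, per the labels, so nothing was tested. Symbols (27645 of 27998 identifiers) and positions came from GENCODE M21 (GRCm38, the same build as mm10). Promoter windows came from RefSeq (GRCm38.p6), with an entry for 6 of the 8 genes.

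Filters asked for 500 genes or more and no more than 10% mitochondrial UMIs. Scrublet then marked 0.432% of control and 1.43% of knockout-labelled barcodes as doublets, which were removed. Both libraries were clustered together without the 8 genes in scanpy 1.11.5, with 2000 variable genes, 30 principal components, 15 neighbours and, from leidenalg 0.10.2, a Leiden resolution of 1. Names came from marker lists. A marker counted as detected at 50 CPM if it also reached 0.25 of its highest cluster level, the best-scoring list needed 5 such markers, and no other list could have more markers among the 10 leading genes. Clusters that failed this stayed unnamed, and the rule was settled after the clusters were seen. Epithelial-like cells were the endocrine-like, trunk/ductal-like and acinar-like classes, each with at least 5 epithelium markers.

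Levels were summed UMIs scaled to CPM, with exact Poisson intervals; ratios had exact conditional and shares exact binomial intervals, all at 95%. A gene was measured with at least 20 UMIs over both groups. Cells were thinned to 5000 UMIs where shares were set side by side, which left out 5 control and 0 knockout-labelled endocrine-like cells. Named were the 8 genes, Ogt, up to 4 genes of each list with the most UMIs in endocrine-like cells, and for each of the 8 the 3 genes most like it; genes named outside this rule were chosen after their values were seen. The genes, lists and rules were chosen with earlier results of these data known. The interval of a ratio was checked on simulated data. These were independent Poisson counts, the model that the interval assumes, so the check does not cover spread between cells. Alternatives covered filters, clustering, scaling (edgeR 4.0.16, DESeq2 1.42.0), thinning, the position measure and the cells counted.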

Additional observations from a re-analysis of the deposited data

Results flagged for a closer look

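Barcodes left out by the filters held a few transcripts of the 8 genes. The 20 control barcodes left out held 4 UMIs, 3 of Neurog3 and 1 of Neurod1. The 64 knockout-labelled barcodes left out held 69 UMIs, of which 37 were of Isl1, 8 of Neurog3 and 7 of Pax6, and 1 barcode held 23. They were flagged because no comparison used these barcodes. Most were left out for mitochondrial UMIs above 10%, 16 in the control and 56 in the knockout-labelled library.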

How the results depend on the processing

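Of 14 alternatives run for the order in each library, diffusion pseudotime among them, 13 left all 7 other genes after Neurog3 and 1 left 6: cells thinned to 5000 UMIs in the control and the position without hormone genes in the knockout-labelled library. With mitochondrial UMIs at most 5%, endocrine-like control cells numbered 13 and the endocrine-like share of UMIs was 30.1% in the control and 63.0% in the knockout-labelled library. Clustering each library alone gave 63 control cells with 85.8% of the UMIs, beside 84.9% in all 105 epithelial-like control cells of the joint clustering. Leaving out barcodes over 50000 UMIs gave a knockout-labelled share of 78.8%. The share of knockout-labelled Neurog3 cells with Pax6, 23.1%, became 12.5% at 2 UMIs or more, 6.45% at 5000 UMIs a cell and 61.9% in endocrine-like cells alone. The ratio reversed for Neurog3 (1.26), Pax4 (2.04) and Fev (2.05) with each library clustered alone, and for Neurog3 (1.30) and Fev (1.40) without the 5 highest cells of each library, and for Ins2 (1.54) without the highest cell of each. Genes at least 1.5-fold higher and lower, 0 and 3, became 7 and 0 with each library clustered alone, 4 and 0 below 0.3%, and 5 and 1 without the 5 highest cells. The cause was not tested, and the share over all genes was not computed for these choices of cells. TMM scaling multiplied all ratios by 1.09 (0.12 on the log2 scale), and the count of lower genes was still 3. Of the values for single genes and gene pairs under these alternatives, 339 stayed inside the interval of the main value, 41 left it and 6 reversed. For median positions, which make up many of them, that interval was the range between the lower and upper quartile of the cells. It is wider in meaning than a counting interval. Splits by position, leaving out the deepest barcodes or the highest cells, and counting endocrine-like cells alone were chosen after seeing the data. No paired analysis was possible because the 2 runs of a genotype were merged in 1 table. Depth limits sparse genes most: Rfx6 had 15 UMIs in the 20 control cells.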
